A study of Mus musculus with 6 samples.

Results

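Strong distal elements of unconfined haematopoietic stem cells are described here: accessible regions far from protein-coding genes that held many ATAC-seq reads in control cells kept without confinement. A region belonged to the set if its midpoint lay more than 10 kb from the nearest end of a RefSeq protein-coding gene and if its mean over the 3 unconfined libraries was at least 50 CPM (counts scaled to a library total of 1000000 over all peaks). The rule found 693 regions among the 20650 peaks over 10 kb from a gene end and the 42632 peaks of the series. The unconfined libraries chose the regions, so their unconfined levels are a description, and a lower level in the other group is favoured by the choice itself.

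Open chromatin was profiled by ATAC-seq, where a transposase cuts and tags accessible DNA, in 3 unconfined and 3 confined libraries. The cells were long-term haematopoietic stem cells (LT-HSCs, Lin- Sca1+ cKit+ CD34- Flt3-) sorted from marrow of C57BL/6 mice (10 to 16 weeks old), with no transgene named in the labels. Unconfined control cells were incubated for 16 h before the assay. Confined cells were incubated for 13 h, attached to fibronectin-coated glass for 0.5 h, kept 2 h below a ceiling set at 5 µm and detached with a dissociation reagent, so attachment, confinement and detachment cannot be told apart. The design text calls the samples biological replicates without saying that each came from a separate animal, so p-values measure the spread between these libraries, which may in part be technical.

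Distal elements are stretches of open DNA where transcription factors bind away from a gene's start. Many act as enhancers, which raise transcription of a gene that need not be the nearest, and others hold insulator sites or starts of long non-coding RNAs. In blood stem cells, such elements carry the RUNX, ETS, GATA and SCL factors that keep the cells' identity, and they differ more between cell types than promoters do. The nearest gene is given below as a position, not as a target.

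Annotated starts of transcription lay in 79 of the 693 regions (11.4%), against 4.11% of the 19957 other distal peaks and 80.1% of the 2416 gene-end peaks with at least 50 CPM. Gene-end peaks are peaks with a midpoint no more than 1 kb from a protein-coding gene end. A start inside a long gene, or the start of a non-coding gene, lies far from the ends of protein-coding genes, so the rule keeps it. Of the 79 regions, 42 held a start of a protein-coding gene and 37 a start of a non-coding gene alone. Starts and sequences are those of RefSeq on GRCm38.p6, whose coordinates are those of mm10, the build named in the submitters' processing notes.

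The sequences below are the 150 bases before the annotated start in 9 of these regions, 5′ to 3′ on the strand of the gene, in lower case with matches to the searched motifs in capitals. The first 5 belong to the regions with a start that held the highest unconfined mean. The other 4 belong to the regions with a start that were called lower in confined cells (below). A shared letter pattern can be read along them: most protein-coding starts are rich in C and G.
Hdac4: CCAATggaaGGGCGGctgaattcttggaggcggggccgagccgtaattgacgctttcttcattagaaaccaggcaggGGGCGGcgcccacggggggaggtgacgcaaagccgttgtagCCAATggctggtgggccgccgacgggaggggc
4930554I06Rik: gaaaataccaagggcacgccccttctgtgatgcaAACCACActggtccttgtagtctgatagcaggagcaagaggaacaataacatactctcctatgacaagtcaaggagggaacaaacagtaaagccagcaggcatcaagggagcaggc
Ptprs: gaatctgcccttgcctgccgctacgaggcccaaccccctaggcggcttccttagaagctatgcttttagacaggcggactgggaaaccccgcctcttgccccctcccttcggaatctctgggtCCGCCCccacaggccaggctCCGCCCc
Lrif1: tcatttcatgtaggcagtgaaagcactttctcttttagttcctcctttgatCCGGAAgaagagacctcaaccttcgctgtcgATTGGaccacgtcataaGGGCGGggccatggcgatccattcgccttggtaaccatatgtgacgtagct
D130051D11Rik: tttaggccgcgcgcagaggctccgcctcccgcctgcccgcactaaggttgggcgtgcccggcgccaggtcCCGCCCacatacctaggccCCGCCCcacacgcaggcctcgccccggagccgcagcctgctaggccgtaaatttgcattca
Srrm2: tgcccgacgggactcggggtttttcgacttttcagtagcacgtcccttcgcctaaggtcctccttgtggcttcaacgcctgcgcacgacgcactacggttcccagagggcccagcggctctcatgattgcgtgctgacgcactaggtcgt
Lrrfip1: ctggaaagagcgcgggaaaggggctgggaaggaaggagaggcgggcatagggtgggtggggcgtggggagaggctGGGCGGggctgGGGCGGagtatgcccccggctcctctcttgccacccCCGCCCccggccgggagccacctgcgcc
Stag1: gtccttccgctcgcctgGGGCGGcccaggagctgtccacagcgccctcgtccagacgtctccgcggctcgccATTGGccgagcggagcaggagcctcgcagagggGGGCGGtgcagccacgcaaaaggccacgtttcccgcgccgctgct
Wdtc1: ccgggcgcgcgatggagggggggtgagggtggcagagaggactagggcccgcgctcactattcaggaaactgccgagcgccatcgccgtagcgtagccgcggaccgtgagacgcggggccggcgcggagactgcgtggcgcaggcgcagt

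The internal start of Hdac4, a class II histone deacetylase gene, lies on chromosome 1 with the printed stretch at 92180342 to 92180491 on the minus strand. It holds 2 GC boxes and 2 CCAAT boxes, the element bound by NF-Y. The stretch before 4930554I06Rik, a long non-coding RNA gene, lies on chromosome 19 at 21104560 to 21104709 on the plus strand. It holds 1 match to the RUNX motif and 1 CpG in 150 bases, so it differs in kind from the CpG-rich starts. The stretch of Ptprs, a receptor tyrosine phosphatase gene, is at 56462222 to 56462371 on chromosome 17, minus strand, with 2 GC boxes. That of Lrif1, whose product binds the nuclear receptor RAR alpha and HP1 proteins, is at 106721532 to 106721681 on chromosome 3, plus strand, with an ETS motif, a CCAAT box and a GC box. That of the long non-coding D130051D11Rik is at 85634446 to 85634595 on chromosome 15, plus strand, with 2 GC boxes. The stretch of Srrm2, a spliceosome scaffold gene, is at 23803037 to 23803186 on chromosome 17, plus strand, and that of Lrrfip1 at 91053294 to 91053443 on chromosome 1, plus strand. Those of the cohesin subunit gene Stag1 and of Wdtc1 are at 100643298 to 100643447 on chromosome 9, plus strand, and at 133339316 to 133339465 on chromosome 4, minus strand. Srrm2 and Wdtc1 hold none of the searched letters in these stretches, Stag1 holds 2 GC boxes and a CCAAT box, and Lrrfip1 holds 3 GC boxes.

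Over the whole windows of 300 bases (250 before and 50 after the start), starts in the set were richer in CpG than those in other distal peaks, for protein-coding and for non-coding genes alike. The 94 starts in the set were compared as counts, with no test. Windows rich in GC and CpG (over 55% GC and an observed CpG count over 0.65 of that expected from the base composition) made up 32 of the 48 protein-coding starts (66.7%) and 14 of the 46 non-coding starts (30.4%). In other distal peaks they made up 39.7% of the 406 protein-coding and 10.3% of the 535 non-coding starts, 23.0% of all 941. They made up 74.0% of the 2607 starts in gene-end peaks with at least 50 CPM and 27.9% of all 32851 windows. A GC box, the letters GGGCGG bound by SP and KLF factors, stood in 53 of the 94 windows (56.4%), against 36.6% of the 941, 76.3% of the 2607 and 35.7% of all windows. The ETS letters CCGGAA stood in 20.2% against 15.0%, 33.8% and 14.9% in the same order. The RUNX letters TGTGGTT stood in 11 of the 94 (11.7%) against 7.12%, 3.64% and 5.27%, 8 of the 11 at non-coding starts. Of the 535 non-coding starts in other distal peaks 10.5% held them, against 17.4% of the 46 in the set. The GATA letters AGATAA stood in 4 of the 94 (4.26%), against 10.9% of the 941, 4.18% of the 2607 and 11.2% of all windows. Letters were searched on both strands, no searched motif contains another, and a match is not evidence of binding.

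**Figure D1:**
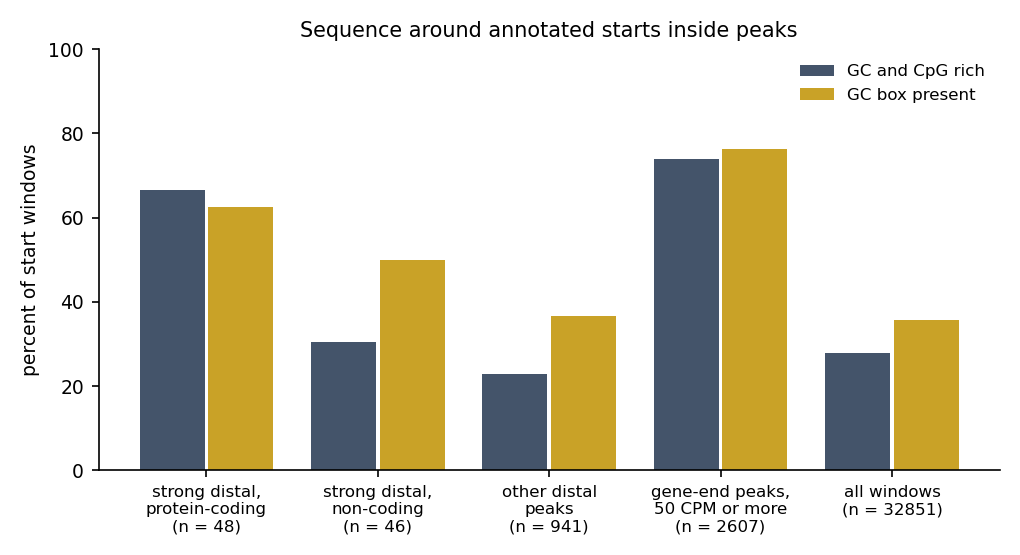
Percent of start windows (y axis) that were rich in GC and CpG (dark bars) or held a GC box (yellow bars), for starts inside strong distal regions, other distal peaks, strong gene-end peaks and all windows of the table. Protein-coding starts of the set reach 66.7% and 62.5%, near the 74.0% and 76.3% of gene-end starts, and non-coding starts of the set reach 30.4% and 50%.

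The set held a median of 62.9 CPM in unconfined cells, and its highest region 189 CPM. Of the 693 regions, 291 lay under 60 CPM and 58 over 100 CPM. All 3 unconfined libraries reached 50 CPM in 389 regions. Library 1 was the highest of the 3 in 388 regions and library 2 the lowest in 497. The last regions inside the limit, nearest to Armc1, Zfand4 and Fmod, held unconfined means of 50.10, 50.09 and 50.004 CPM, and the first outside, nearest to Ap3b1, Zfpm1 and Tbx3, held 49.97, 49.94 and 49.94 CPM.

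The regions were spread widely over the genome. They had 609 different nearest genes, and 567 had no other member within 50 kb. Protein-coding genes spanned the midpoint of 371 regions (53.5%), much as for the other distal peaks (52.8%), and the median distance to a gene end was 31574 bp against 36386 bp. The farthest lay 439924 bp from an end, inside Adamtsl1, and the next at 416652 bp from Zfp462, 375708 bp inside Wwox, 367386 bp from Atp6ap1l and 363566 bp from Rgs18. Chromosome 17 had the highest share of its distal peaks in the set (52 of 878, 5.92%) and chromosome X the lowest (4 of 381, 1.05%), against 3.36% over all chromosomes. These shares are a description of where the chosen regions lie.

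Runs of neighbouring members were few. Chaining regions at 50 kb gave 11 groups of 3 or more regions, with 38 regions in all. The longest held 6 regions over 108256 bp of chromosome 17, from 83918352 to 84026607, beside Zfp36l2, which encodes an RNA-binding protein that promotes mRNA decay, and Haao. Averaged over its regions, it held 85.8, 69.3 and 89.1 CPM in unconfined libraries 1 to 3 and 43.5, 24.1 and 18.2 CPM in confined libraries 1 to 3. Another 4 regions lay between this run and Zfp36l2, from 84116280 to 84161949, and were nearest to Zfp36l2. Among the shorter groups of 3 were those near Chd2, a chromatin remodeller, Gse1, Smad3, a mediator of TGF-beta signalling, and Lyl1, a haematopoietic bHLH factor. A group of 4 inside Tex14 on chromosome 11, from 87442903 to 87471662, lies over the U3 RNA genes Rnu3b1 to Rnu3b4. These genes are near-identical copies, so how their reads were assigned is uncertain. Their mean levels were 122, 64.9 and 98.1 CPM unconfined and 58.7, 53.1 and 35.1 CPM confined. They stay in the set, and leaving them out moved the group difference given below from -35.8 to -35.7 CPM.

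In the strongest regions, the unconfined libraries were each above every confined library, which the ranking on unconfined means favours. The same held in 67.4% of the set, 77.7% of gene-end peaks standardised to the same unconfined CPM and 13.2% of all peaks. The first region by unconfined mean lies on chromosome 2 from 25111008 to 25111707, 16152 bp from Noxa1, an activator of NADPH oxidase. It held 239, 152 and 176 CPM in unconfined libraries 1 to 3 and 141, 45.2 and 31.2 CPM in confined libraries 1 to 3. The second lies inside Agpat3, a lipid acyltransferase gene, on chromosome 10 from 78297798 to 78298497, with 239, 116 and 165 CPM unconfined and 70.4, 27.1 and 39.0 CPM confined. In both, confined library 1 was the highest of the confined libraries and came nearest to the unconfined range.

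The third is the region of the internal Hdac4 start printed above, on chromosome 1 from 92180240 to 92180939, with 213, 120 and 179 CPM unconfined and 70.4, 36.1 and 15.6 CPM confined. The fourth is that of the 4930554I06Rik start, whose nearest protein-coding gene is Tmc1, with 223, 119 and 157 CPM unconfined and 96.8, 18.1 and 39.0 CPM confined. A region inside Arid1b, a BAF chromatin remodeller subunit gene, on chromosome 17 from 5327513 to 5328212, held 174, 124 and 180 CPM unconfined and 79.2, 36.1 and 15.6 CPM confined. None of these groups of libraries overlapped, which the ranking on unconfined means favours. Another 6 of the first 12 lay nearest to Reep3, St3gal2, Ptprs, Haao, Cyria and Gm41291, with unconfined means of 144 to 150 CPM. In the Ptprs region, with the start printed above, confined library 3 held 0 counts, which allows up to 23.4 CPM (3 counts, counting error only).

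**Figure D2:**
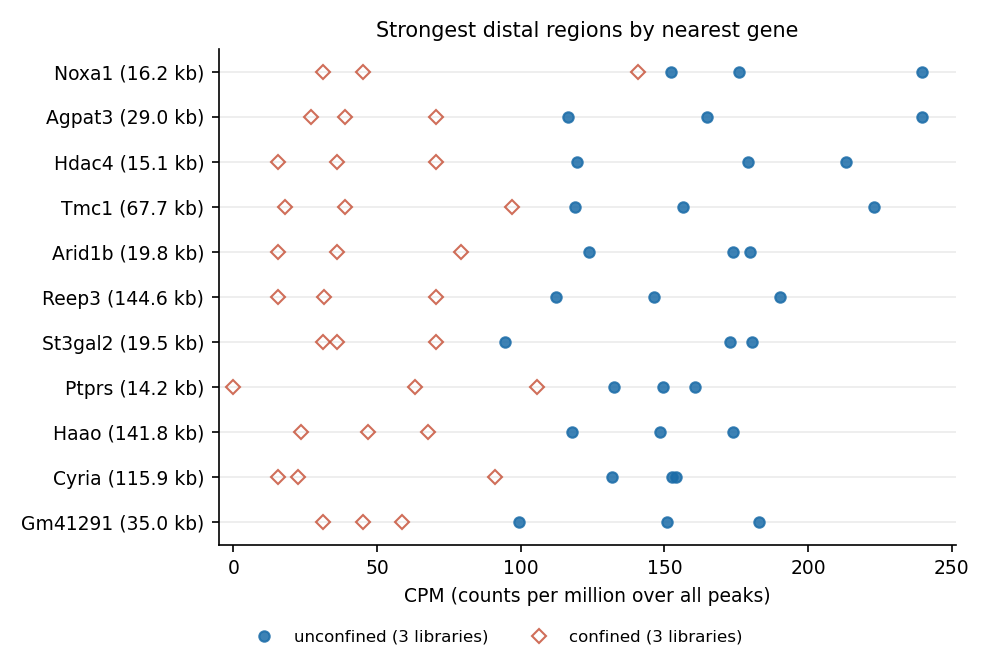
CPM (x axis) of 11 of the 12 regions with the highest unconfined mean, named by the nearest protein-coding gene with the distance to its end, as filled circles for the 3 unconfined and open diamonds for the 3 confined libraries. In all 11, the diamonds lie to the left of the circles, beside 67.4% of the set, 77.7% of gene-end peaks standardised to the same unconfined CPM and 13.2% of all peaks. The regions were chosen by the circles.

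Confined cells held fewer of their counts in the set. Its 693 regions took 5.38%, 4.09% and 5.10% of the counts of unconfined libraries 1 to 3 and 3.20%, 1.90% and 1.57% of confined libraries 1 to 3. The 95% Clopper-Pearson intervals, which cover counting error only, were 5.30 to 5.46, 4.05 to 4.12 and 5.06 to 5.14 in unconfined and 3.14 to 3.26, 1.845 to 1.959 and 1.504 to 1.641 in confined libraries. An average region held 77.7, 59.0 and 73.6 CPM unconfined and 46.2, 27.4 and 22.7 CPM confined, where the mean over all peaks is 23.5 CPM in every library. In confined libraries 2 and 3 the chosen regions therefore held 1.17 and 0.966 times the counts of an average peak, and in confined library 1 they held 1.97 times as many. In the unconfined libraries the ratio was 3.31, 2.51 and 3.14.

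Depth and pattern differed between the libraries together with these levels. Total counts were 304898, 1229478 and 983863 in unconfined and 340922, 221390 and 128257 in confined libraries 1 to 3. A median member rested on 22, 68 and 66 counts in unconfined and on 16, 6 and 3 counts in confined libraries 1 to 3, and 58 regions had no count in confined library 3. Across all peaks, log2(CPM + 1) of confined libraries 2 and 3 correlated with that of the unconfined libraries at r = -0.03 to 0.05, and that of confined library 1 at 0.42 to 0.52. The confined libraries correlated with each other at only 0.02 to 0.09, and the unconfined libraries with each other at 0.68 to 0.82. Across the 693 regions, CPM correlated with the unconfined mean at r = 0.482, 0.184 and 0.0563 in confined libraries 1, 2 and 3. The points of these correlations share a library, so they are descriptions. The part of depth and pattern in the results below was not tested, and fewer cells with an open region cannot be told apart from less opening per cell.

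A further reading was made with libraries that had not chosen the regions. The regions were still chosen on the unconfined group, so a lower level in confined libraries remains favoured. For each batch number, the regions were chosen again from the 2 unconfined libraries of the other numbers (626, 800 and 655 regions for numbers 1 to 3), and the level was read in the unconfined and the confined library of that number. The mean level was 76.1, 55.8 and 72.5 CPM in unconfined libraries 1 to 3 and 47.0, 27.0 and 22.9 CPM in confined libraries 1 to 3. Every confined value lay below every unconfined value. The group means were 68.1 ± 10.9 and 32.3 ± 12.9 CPM (n = 3 libraries a group, SD), and the difference of -35.8 CPM gave p = 0.1 in a two-sided exact permutation test. No 3 against 3 comparison can give a smaller p, so the test cannot pass 0.05. Taking confined library 1 alone left a difference of -21.1 CPM. The regions were thus strong again in an unconfined library that had no part in their choice, and each confined library was lower.

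**Figure D3:**
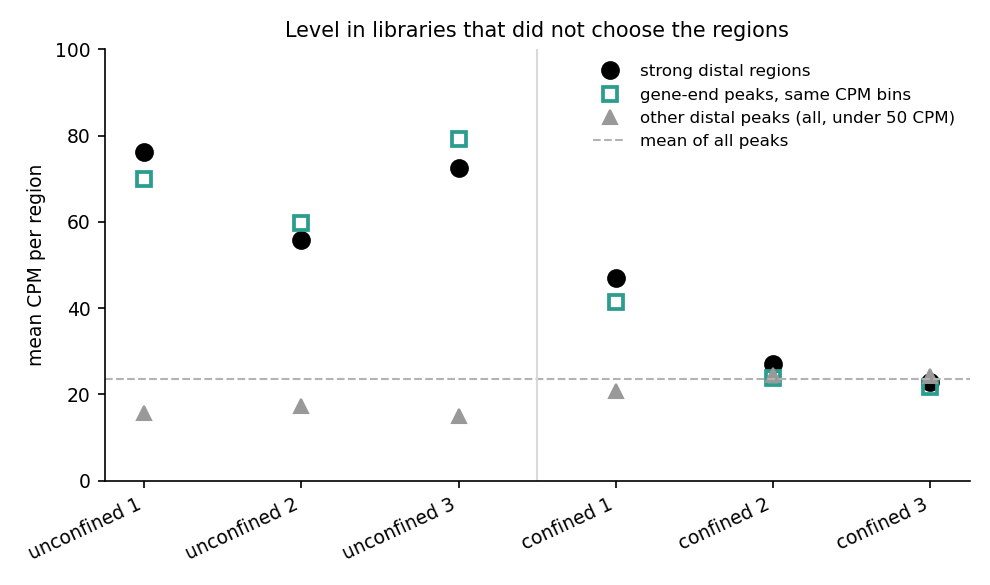
Mean CPM per region (y axis) in each library (x axis) for strong distal regions chosen without that batch number's unconfined library (black circles), gene-end peaks standardised to the same bins of unconfined CPM (green squares) and all other distal peaks (grey triangles). Circles and squares lie together at 55.8 to 79.1 CPM in unconfined libraries, at 41.3 to 47.0 CPM in confined library 1, and near the mean of all peaks (dashed line, 23.5 CPM) in confined libraries 2 and 3.

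Set against gene-end peaks of the same unconfined level, distal regions had ratios that overlapped between the groups of libraries. Both classes are chosen on the same level, so a fall through the choice is expected in both. Chosen and binned without the library being read (5 bins of CPM, with edges at 60, 75, 100 and 150), gene-end peaks held 69.8, 59.8 and 79.1 CPM unconfined and 41.3, 23.7 and 21.8 CPM confined. Distal regions held 1.09, 0.932 and 0.916 times the level of gene-end peaks in unconfined libraries 1 to 3 and 1.137, 1.138 and 1.05 times in confined libraries 1 to 3. Unconfined library 1 lay above confined library 3. The log2 ratio was higher by 0.18 in confined cells (-0.03 ± 0.14 unconfined, 0.15 ± 0.06 confined, n = 3 libraries a group, SD). The two-sided exact permutation test gave p = 0.2, where 0.1 is the smallest possible, and the value was 0.22 with confined library 1 alone. The groups came apart, at the smallest p of 0.1 (two-sided exact permutation test), with a limit of 40 CPM (0.24) and with medians within bins (0.30). They also did without unconfined library 1 (0.21) or 2 (0.23), where some choices rested on 1 unconfined library. By the same test p was 0.3 with a limit of 75 CPM (0.19) and without confined library 1 (0.16) or 2 (0.16). All 3 batch numbers had the higher ratio in the confined library (exact sign-flip test with the replicate number as a block, p = 0.25, the smallest it allows).

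The level in confined cells still followed the unconfined level in confined library 1. With the regions and bins taken from all 3 unconfined libraries, distal regions of 50 to 60, 60 to 75, 75 to 100, 100 to 150 and over 150 CPM held means of 40.4, 45.6, 51.9, 62.4 and 91.5 CPM there. In confined library 2 the same bins held 24.5, 29.0, 29.6, 31.9 and 32.5 CPM, and in confined library 3 they held 21.7, 22.8, 23.8, 24.1 and 28.1 CPM. The top bin holds only 5 regions. Gene-end peaks of the same bins held 35.3, 40.2, 47.3, 60.5 and 89.6 CPM in confined library 1.

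**Figure D4:**
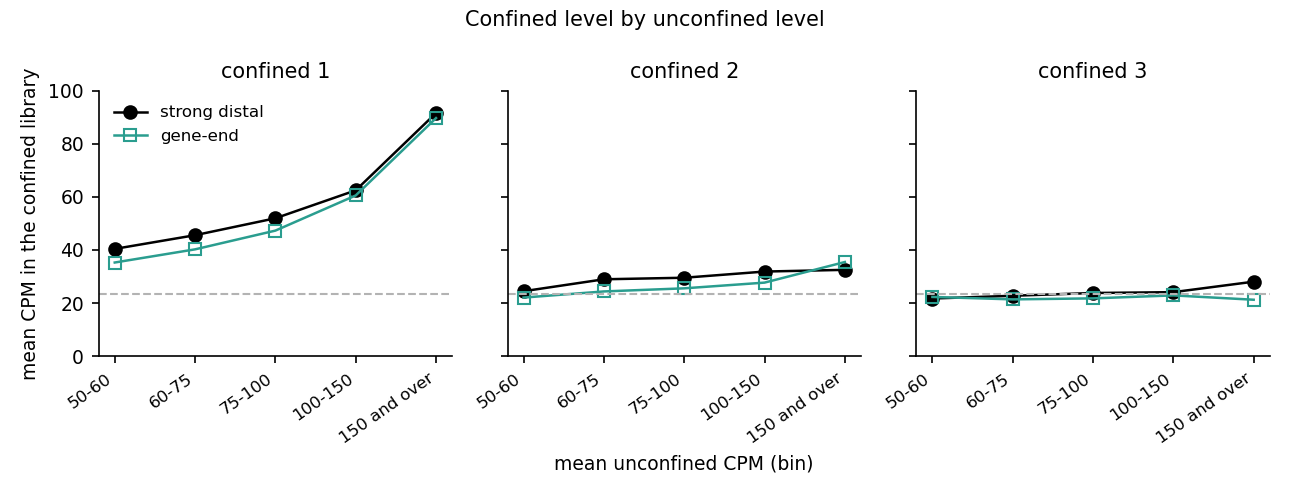
Mean CPM in each confined library (y axis, 1 panel per library) by bins of unconfined mean CPM (x axis) for strong distal regions (black circles) and gene-end peaks (green squares), with the mean of all peaks as a dashed line. The lines climb to 91.5 and 89.6 CPM in confined library 1 and stay between 21.3 and 35.5 CPM in the other 2 libraries.

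Regions with an annotated start were set against those without, since the rule did not use starts. Chosen without the library being read, regions with a start held 77.7, 58.5 and 82.1 CPM in unconfined and 46.4, 23.4 and 23.9 CPM in confined libraries 1 to 3. Regions without a start held 75.9, 55.4 and 71.4 CPM unconfined and 47.1, 27.5 and 22.8 CPM confined. The log2 ratio of the first to the second was 0.11 ± 0.09 unconfined and -0.06 ± 0.15 confined (n = 3 libraries a group, SD, exact permutation p = 0.2, two-sided), so no difference was shown. Leaving the regions with a start out of the whole set gave a difference of -35.1 CPM between confined and unconfined cells.

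At single regions, 14 of the 691 tested regions were lower and 2 higher in confined cells (edgeR quasi-likelihood test with TMM scaling, Benjamini-Hochberg adjusted p under 0.05). The filter on low counts kept all but 2 members. Over all 9084 tested peaks, 2.42% were lower and 5.79% higher. The rule used the unconfined side of this contrast, so nothing is read from the counts. Of the gene-end peaks standardised to the same bins, 4.65% were lower. All 3 confined libraries lay below all 3 unconfined libraries in 467 of the 693 regions (67.4%), against 13.2% of all peaks and 77.7% of gene-end peaks standardised to the same bins. The TMM scaling sets the zero point. Scaled by total counts instead, the tested peaks as a whole moved from a median log2 fold change of -0.02 to -0.68, and 245 members were lower and none higher, beside 25.2% of all tested peaks lower. The fit with a replicate block called 7 members lower and none higher, beside 0.815% of all tested peaks lower (edgeR).

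The number of calls moved with single libraries, among members and among all tested peaks. Without unconfined library 1, 2 or 3, 72, 25 and 6 members were lower, beside 4.79%, 2.43% and 0.708% of all tested peaks. Without confined library 1, 2 or 3, 78, 6 and 42 were lower, beside 7.42%, 0.588% and 4.31%. Taking confined library 1 alone, the spread comes from the unconfined group, the lone library being assumed to vary like it. The median log2 fold change of the members was -0.77 there, against -0.06 over all tested peaks (edgeR), a gap that the choice favours.

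Of the 14 lower regions, 4 held an annotated start, those of Stag1, Wdtc1, Lrrfip1 and Srrm2 printed above. The choice of the set on unconfined levels favours a lower call, so the edgeR p-values of these regions are a description. The Stag1 region, on chromosome 9 from 100642910 to 100643609, 45550 bp from a gene end, had the smallest p. It held 91.8, 74.8 and 104 CPM unconfined and 23.5, 9.03 and 15.6 CPM confined (log2 fold change -1.70 ± 0.41, SE, adjusted p = 0.00656 by edgeR). The confined values of the Stag1 region rest on 8, 2 and 2 counts. An intergenic region 36938 bp from Mrps18a, a mitochondrial ribosomal protein gene, on chromosome 17 from 46073717 to 46074416, held 141, 104 and 137 CPM unconfined and 38.1, 22.6 and 15.6 CPM confined (log2 fold change -1.45, edgeR adjusted p = 0.0125, and 0.0501 with the replicate block). A region 156546 bp from Ctnnb1, the beta-catenin gene, on chromosome 9 from 120776505 to 120777204, held 131, 84.6 and 126 CPM unconfined and 44.0, 13.6 and 7.80 CPM confined (log2 fold change -1.36, edgeR adjusted p = 0.0219).

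The Wdtc1 region, on chromosome 4 from 133338994 to 133339693, held 82.0, 64.3 and 91.5 CPM unconfined and 29.3, 13.6 and 0 CPM confined (log2 fold change -1.41, edgeR adjusted p = 0.0267). Its confined values rest on 10, 3 and 0 counts. A region inside Trappc9, nearest to the end of Gm31665, and another inside Tmem29 on chromosome X had log2 fold changes of -1.37 and -1.21 (edgeR adjusted p = 0.0350 for each). The Tmem29 call was lost with the replicate block (edgeR adjusted p = 0.0976). Of these 6 regions, that of Stag1 alone stayed past the threshold without confined library 2 (edgeR adjusted p = 0.0420), though the log2 fold changes of Mrps18a, Ctnnb1 and Wdtc1 were -1.66, -1.40 and -1.57 there. None passed with confined library 1 alone, where those of Stag1, Mrps18a, Ctnnb1 and Wdtc1 were -2.14, -1.93, -1.56 and -1.63. Without unconfined library 3, the Wdtc1 and Tmem29 calls were lost (edgeR adjusted p = 0.0594 and 0.0803). Calls kept or lost in this way are read on regions chosen for their unconfined level, so they too are a description. The other 8 lower regions lay at the starts of Lrrfip1 and Srrm2, inside Cyria and Prdm2, and nearest to Cxxc5, Med13l, Laptm5 and Arhgap12, with log2 fold changes of -1.43 to -1.10.

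The 2 higher regions lay deep inside long genes and stood apart in their unconfined libraries. The region inside Flt1, a VEGF receptor gene, on chromosome 5 from 147611174 to 147611873, held 131, 27.7 and 48.8 CPM unconfined and 52.8, 136 and 78.0 CPM confined (log2 fold change 1.39 ± 0.40, SE, adjusted p = 0.0224 by edgeR). The region inside the potassium channel gene Kcnq5, on chromosome 1 from 21632481 to 21633180, held 102, 30.9 and 50.8 CPM unconfined and 76.3, 67.8 and 46.8 CPM confined (log2 fold change 1.10, edgeR adjusted p = 0.0354). In both, unconfined library 1 stood well above the other unconfined libraries and the groups overlapped. Both calls were lost with the replicate block (edgeR adjusted p = 0.0789 and 0.179), with scaling by total counts (0.351 and 0.566) and with DESeq2. Without confined library 2 the log2 fold change of the Flt1 region was 0.51 and that of the Kcnq5 region 0.74, and neither passed (edgeR adjusted p = 0.509 and 0.243). The Flt1 call was also lost without unconfined library 2 or 3, and the Kcnq5 call without any library other than confined library 3. The Flt1 region turned negative with confined library 1 alone (-0.34), and the Kcnq5 region with DESeq2 (-0.093).

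Regions that stayed high in confined cells were rare. A confined mean of at least 50 CPM was found in 27 of the 693 regions, and 3 regions, nearest to Flt1, Ap1m1 and Trabd2b, reached 50 CPM in each confined library. Apart from the Flt1 and Noxa1 regions, the highest confined mean belonged to a region 11210 bp from Ap1m1, a clathrin adaptor gene, and 50466 bp from Klf2, on chromosome 8 from 72268247 to 72268946. It held 108, 85.4 and 83.3 CPM unconfined and 79.2, 58.7 and 70.2 CPM confined, with no overlap. The regions inside Kcnq5 (above) and Vav1, which encodes a signalling protein of blood cells, followed, with confined means of 63.6 and 62.2 CPM. The Vav1 region held 154, 120 and 158 CPM unconfined and 106, 49.7 and 31.2 CPM confined. The region inside Lrmda had a confined mean of 61.0 CPM. Of the confined libraries, library 1 lay below every unconfined library in 500 regions, library 2 in 661 and library 3 in 653. The choice favours such counts, and shares over all peaks were not computed for single libraries. All 3 confined libraries did so together in 67.4% of the regions, against 13.2% of all peaks and 77.7% of gene-end peaks standardised to the same bins.

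Genes of blood and of the mechanical response were looked up in 10 lists, chosen with earlier results of these data known. The nearest gene of 40 members was on a list, which is 4.96% of the 806 distal peaks nearest to such genes, against 3.36% of all distal peaks. None of the 40 passed the edgeR test in either direction. At an unadjusted edgeR p under 0.05, 5 were lower and none higher, beside 111 lower and 3 higher of the 691 members tested. The share over all peaks at that limit was not computed. DESeq2 called 21 of the 40 lower, beside 284 of the 693 and 28.7% of all peaks it tested. In 32 of the 40, all confined libraries lay below all unconfined ones, beside 13.2% of all peaks and 77.7% of gene-end peaks standardised to the bins of the set. Their median log2 fold change was -0.37, against -0.26 over the members tested, -0.44 over those gene-end peaks and -0.02 over all tested peaks, a gap that the choice of the set favours.

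Transcription factors of stem cells had 14 regions near 10 of 35 genes, with unconfined means of 51.9 to 90.4 CPM and confined means of 17.8 to 43.0 CPM. All confined libraries lay below all unconfined libraries in 12 of the 14. The same held in 67.4% of the set, 77.7% of gene-end peaks standardised to its bins and 13.2% of all peaks, and the choice favours it. The highest of the 14 lies inside Meis1, a HOX cofactor gene, on chromosome 11 from 18969762 to 18970461, 49540 bp from a gene end. It held 108, 71.6 and 91.5 CPM unconfined and 61.6, 36.1 and 31.2 CPM confined. A region 53440 bp from Bcl11a, a zinc finger repressor of fetal globin, on the same chromosome from 24226649 to 24227348, held 88.6, 78.9 and 97.6 CPM unconfined and 49.9, 36.1 and 39.0 CPM confined. The groups did not overlap in either.

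The region inside Mef2c, a MADS box factor gene, held 108, 62.6 and 82.3 CPM unconfined and 52.8, 22.6 and 15.6 CPM confined. The groups were again apart. None of these 3 passed (edgeR adjusted p = 0.409 to 0.735). Another 10 lay near Lyl1 (3 regions inside its neighbour Nfix), Gfi1b (2 regions, 10038 and 11304 bp from the gene), a second Meis1 element, Etv6, Fli1, Runx1 and Ikzf2. The Runx1 region, named after its values were seen, lies inside the gene of this core-binding factor on chromosome 16 from 92620779 to 92621478. It held 42.6, 62.6 and 63.0 CPM unconfined and 41.1, 22.6 and 0 CPM confined, so the groups were apart by a small gap.

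Surface and signalling genes of stem cells had 7 regions near 6 of 33 matched genes. The strongest lies 74250 bp from Kit, the stem cell factor receptor by which the cells were sorted, on chromosome 5 from 75730623 to 75731322. It held 157, 97.6 and 110 CPM unconfined and 29.3, 36.1 and 46.8 CPM confined, with no overlap, and did not pass (log2 fold change -1.04, edgeR adjusted p = 0.0732). A region 22872 bp from Cxcr4, the CXCL12 receptor gene that holds stem cells in the marrow, held 91.8, 75.6 and 91.5 CPM unconfined and 38.1, 18.1 and 15.6 CPM confined (edgeR adjusted p = 0.0792). A second one, 112970 bp from Cxcr4, held 62.3, 64.3 and 75.2 CPM unconfined and 52.8, 18.1 and 15.6 CPM confined. The region inside Adgrg1, an adhesion receptor gene, held 85.3, 56.1 and 59.0 CPM unconfined and 32.3, 22.6 and 15.6 CPM confined. Those near Vwf, Itga6 and Cd9 lay at 51.1 to 56.9 CPM unconfined, and in each of these the groups overlapped through confined library 1.

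**Figure D5:**
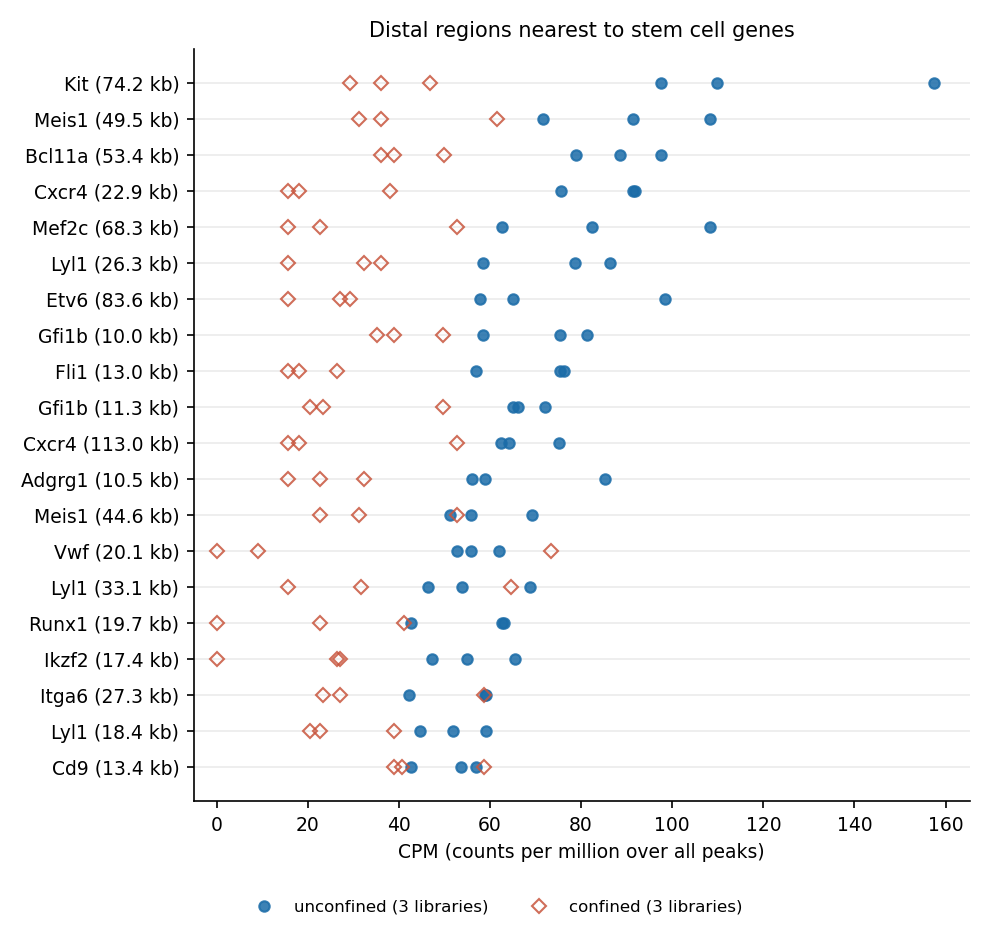
CPM (x axis) of 20 of the 21 regions whose nearest gene is a stem cell transcription factor or a surface or signalling gene of stem cells, named by gene with the distance to its end, as filled circles for the 3 unconfined and open diamonds for the 3 confined libraries. The Kit region reaches 157 CPM unconfined and at most 46.8 CPM confined, and groups overlap only among the lower regions, such as those at Vwf, Itga6 and Cd9.

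Members made up 7.14% of the 42 distal peaks nearest to genes of the myeloid list, 6.45% of 31 for the erythroid and megakaryocyte list, 3.45% of 58 for the B cell list and 5.26% of 57 for the T and NK cell list. For the stem cell lists the shares were 5.43% of 258 and 5.19% of 135, and no difference was tested. Of the myeloid list, regions lay near Itgam, Klf4 and Spi1, which encodes PU.1, a master regulator of myeloid cells. In all 3, the confined libraries lay below the unconfined ones, beside 67.4% of the set and 77.7% of gene-end peaks standardised to its bins. Over all peaks the share was 13.2%. The Spi1 region, on chromosome 2 from 91096558 to 91097257, 14534 bp from a gene end, held 55.8, 48.8 and 56.9 CPM unconfined and 41.1, 22.6 and 23.4 CPM confined. The erythroid and megakaryocyte list had Selp and Vwf, the B cell list Bcl6 and Ikzf1, and the T and NK cell list Ets1, Gata3 and Klrb1c. Their unconfined means ran from 52.4 to 85.1 CPM. The list of non-blood lineage genes had none among the 24 distal peaks nearest to its genes, which allows a share of up to 12.5%.

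KLF and early response genes had members from 18528 bp (Fos) to 268786 bp (Klf6) away. The Klf4 region, 118892 bp from the gene on chromosome 4 from 55651018 to 55651717, held 65.6, 48.0 and 59.0 CPM unconfined and 23.5, 18.1 and 0 CPM confined (edgeR adjusted p = 0.130). Regions nearest to Klf7, Klf6 and Klf2 held unconfined means of 84.0, 75.8 and 62.4 CPM and confined means of 35.4, 39.2 and 43.0 CPM. In the Klf6 and Klf2 regions, confined library 1 reached into the unconfined range at Klf6 and lay above it at Klf2. A region 18528 bp from Fos, an AP-1 subunit gene, on chromosome 12 from 85455012 to 85455711, held 141, 84.6 and 120 CPM unconfined and 64.5, 45.2 and 54.6 CPM confined. A region 109198 bp from Jun, the partner of Fos in AP-1, held 65.6, 46.4 and 57.9 CPM unconfined and 23.5, 9.03 and 0 CPM confined (edgeR adjusted p = 0.0772). The region nearest to Fos thus had a mean of 115 CPM unconfined and 54.8 CPM confined. The region nearest to Jun had 56.6 CPM unconfined and 10.8 CPM confined. The 0 CPM in confined library 3, there and in the Klf4 region, allows up to 23.4 CPM (3 counts, counting error only).

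Of the mechanical response and cytoskeleton list, 5 regions were members and none passed. They lay near Lbr, the lamin B receptor gene (84.3 CPM unconfined and 26.3 CPM confined on average), the cytoplasmic actin gene Actb (70.9 and 49.8 CPM), the YAP partner Tead4 (69.0 and 25.8 CPM), and inside the lamin genes Lmnb1 (57.4 and 43.8 CPM) and Lmna (56.5 and 23.9 CPM). The Actb region, on chromosome 5 from 142920655 to 142921354, held 65.6, 70.8 and 76.2 CPM unconfined and 58.7, 36.1 and 54.6 CPM confined, the groups being apart by a small gap. The Lmna region holds an annotated start of Lmna at its edge. In the Lmnb1 region the groups overlapped.

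The nearest gene end missed some known neighbours of these lists, and the following were named after their values were seen. A region inside Evi5 on chromosome 5 from 107758977 to 107759676 lies 33522 bp from Gfi1, a repressor of stem cell proliferation. It held 161, 111 and 152 CPM unconfined and 93.9, 13.6 and 7.80 CPM confined. A region inside Ahi1 on chromosome 10 from 21054676 to 21055375 lies 69904 bp from Myb, a factor of progenitor growth, and held 144, 96.8 and 133 CPM unconfined and 73.3, 27.1 and 39.0 CPM confined. Neither passed (edgeR adjusted p = 0.178 and 0.295), and in both the libraries of the groups did not overlap.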

How the data were processed

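ATAC-seq of 3 unconfined and 3 confined LT-HSC samples was analysed. The authors deposited 1 table of raw counts per consensus peak and a file of peak coordinates (start and end, a unit of position), all 700 bp wide. The submitters' processing notes name featureCounts, SAMtools 1.14, R 4.2.0 and the build mm10. Their roles, the aligner, peak caller, pooling, duplicate removal and read shift for the transposase were not given in the sources used here. The libraries used for peak calling decide which distal peaks are listed, and this could affect the comparison.

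Distances used RefSeq genes of GRCm38.p6, which hold gene starts and ends but no exon models, so regions are called inside or outside a gene only. The members, gene lists and tests were chosen with earlier results of these data known. Regions were named by rank of unconfined or confined mean, distance, edgeR p, or up to 4 per gene list. The fit over all peaks used glmQLFit and glmQLFTest after filterByExpr and TMM (edgeR 4.0.16, R 4.3.3), with DESeq2 1.42.0 as an alternative. Libraries were compared by exact permutation in Python 3.11.15, CPM being over all peaks. On simulated counts for 9084 peaks, edgeR recovered 28% of 2-fold and 77% of 4-fold changes and called 1 of 8884 peaks drawn without change. The simulated libraries shared 1 pooled profile, with as many rises as falls. In the data the confined libraries hardly correlated with each other, so these rates may not carry over.

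The labels give same-numbered samples of the groups 1 experimental batch, so the numbers pair them. Across peaks, same-numbered libraries departed from their group means with correlations of 0.04, 0.06 and -0.05, and differently numbered ones with -0.16 to 0.10. Each batch holds 1 library of each group. No genome sequence was used, so sequences are shown only at annotated starts. A few regions are counted but not reported here by name.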

Additional observations from a re-analysis of the deposited data

How the results depend on the processing

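The lower level of strong distal regions in confined cells, read in libraries that had not chosen them, kept its direction under all 15 alternatives. The difference ran from -57.0 CPM with a limit of 75 CPM to -21.1 CPM with confined library 1 alone (-43.1 to -31.1 CPM with 1 library left out). Every alternative still chose the regions on unconfined libraries, which favours this direction. The log2 ratio to gene-end peaks kept its direction under 17 alternatives, between 0.16 and 0.30, with p of 0.1 to 0.3, and none could pass the threshold, since the libraries allow no p under 0.1. The replicate block left both values as they were (-35.8 CPM and 0.18, exact sign-flip p = 0.25). No region exceeded 500 CPM, so leaving such regions out had no effect. Confined library 1 alone, regions without a start, the U3 genes and 10 bins were chosen after seeing the data.

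The calls at single regions depended on the setting. Against 14 lower members, 245 were lower with total counts as the only scaling (25.2% of all tested peaks), 163 with no filter (4.27%), 284 with DESeq2 (28.7%), 7 with the replicate block (0.815%), 0 with confined library 1 alone (0.0185%), and 6 to 78 with 1 library left out (edgeR except DESeq2). Of the 14, all were again lower with total counts, with no filter and with DESeq2, and 6 with the block. Against 2 higher members, 0 were higher under each of those 5 settings (at an unadjusted p under 0.05, 2 with the block and 0 with the others), and 0 to 2 with 1 library left out. The Flt1 fold change turned to -0.34 with confined library 1 alone and that of Kcnq5 to -0.093 with DESeq2. The cause was not tested. The set had 1221 regions with a limit of 40 CPM, 189 with 75 CPM and 389 with 50 CPM in each unconfined library. At 3 to 16 counts in the median region of a confined library, changes of 2-fold at a region were mostly not detectable.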
